A study of Mus musculus with 8 samples.

Results

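The Mediator kinase module was described in mouse embryos at the late 2-cell stage through its 7 genes, Med12, Med12l, Med13, Med13l, Cdk8, Cdk19 and Ccnc. The members were chosen by gene symbol, without use of measured values: every deposited transcript row under one of these symbols was taken, which gave 44 of 93738 usable rows and 7 of 34976 symbols. The embryos were of CF-1 mice, an outbred stock, and no altered allele is given in the labels. Med13-MO embryos (4 libraries) had been injected at the early 1-cell stage with a morpholino directed at Med13 and are labelled a MED13 knockdown. Scr-MO embryos (4 libraries) had been injected at the same stage with a scrambled morpholino. A morpholino is an antisense oligomer that binds RNA and can block its translation or its splicing. Each library came from a pool of 40 embryos, and the p-values therefore rest on the spread among pools. Replicate numbers used here follow the order of the library titles within each group. The same number in both groups marks no pair or shared batch. The values were FPKM, fragments scaled by transcript length and by the fragment total of the library. In such pooled RNA, fewer cells with a transcript and less of it per cell cannot be told apart.

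Mediator carries signals from DNA-bound transcription factors to RNA polymerase II. Its kinase module binds the core complex reversibly, and the polymerase and the module do not bind the core together. CDK8 or its paralogue CDK19 is the kinase, cyclin C is its activating partner, MED12 or MED12L switches the cyclin-bound kinase on, and MED13 or MED13L ties the module to the core. The late 2-cell stage of the mouse is when the embryo's own genome is transcribed broadly, while RNA laid down in the oocyte is being cleared.

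Of the 7 genes, Cdk8 differed most between the groups and was higher in each Med13-MO library than in any Scr-MO library, but it did not pass the test over all genes. Of all tested genes, 10.4% were higher without overlap in the same way. Med13, the gene the morpholino was directed at, was at about the same mRNA level in both groups. At transcript resolution, 1 of 21 tested rows rose in Med13-MO embryos, the coding model Cdk8-206, where 8.17% of all tested rows were called higher; the call was lost without any 1 library. The Cdk8 models that lie mostly in introns overlapped between the groups. Med12, Med12l, Med13l, Ccnc and Cdk19 had intervals that included no difference.

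The label names the transcription start site of Med13 as the target of the morpholino, and the sources used here do not give the sequence of the oligomer itself. The stretch around that start is shown as the place the label refers to, from the RefSeq promoter table (GRCm38.p6, minus strand, chr11:86357567-86357716). Lower case marks the 120 bases before the RefSeq start and capitals the first 30 transcribed bases.
Med13 start: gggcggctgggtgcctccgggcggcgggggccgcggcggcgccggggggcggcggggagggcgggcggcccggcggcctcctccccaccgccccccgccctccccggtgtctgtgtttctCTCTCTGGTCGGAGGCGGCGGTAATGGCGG
The GENCODE M21 model of Med13 starts at 86357602, 6 bases upstream of the RefSeq start at 86357596, and its start codon begins at 86357525. That start codon lies downstream of the stretch shown, so the ATG within the capitals is not the annotated start codon.

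The 8 libraries held 31378977 to 48050262 fragments, read back from the FPKM steps. Pearson's r of log2(FPKM + 1) over genes was 0.943 to 0.986 between libraries of a group and 0.882 to 0.958 between groups, a description across genes, and 0 pairs of libraries were identical. All 8 markers of 2-cell embryos and all 6 oocyte-inherited markers had a mean FPKM of at least 1, as did 1 of 8 cumulus, 2 of 6 immune, 1 of 4 oviduct, 0 of 7 sperm and 0 of 5 red blood cell markers, of which 5 sperm and 3 red blood cell markers were in the table. The summed 2-cell markers, led by Tmem92, ran from 286 to 407 FPKM in Med13-MO libraries and from 187 to 254 in Scr-MO libraries. The summed oviduct markers, led by Ovgp1, ran from 2.82 to 3.21 FPKM in Med13-MO and from 3.81 to 6.33 FPKM in Scr-MO libraries. Neither pair of ranges overlapped, where 21.6% of all tested single genes did not, and their part in the results was not tested. The summed cumulus markers, led by Amhr2, overlapped, at 12.2 to 16.4 FPKM in Med13-MO and 9.91 to 15.8 FPKM in Scr-MO libraries.

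The levels of the 7 genes spanned a wide range. FPKM are per length, and levels of different genes were set side by side as the sum of a gene's rows. Short rows over the same exons add to such a sum, so it also depends on the models each gene has. Cdk8 stood first in both groups, followed by Med13, Ccnc, Med13l, Med12, Cdk19 and Med12l. In Med13-MO libraries Cdk8 lay between 56.3 and 64.7 FPKM and Med13 between 39.4 and 43.9, so the highest pair did not overlap. In Scr-MO libraries Cdk8 lay between 36.5 and 48.1 FPKM and Med13 between 38.2 and 47.5, so there the summed levels overlapped. By the protein-coding rows alone, Scr-MO libraries had 23.5 to 29.2 FPKM of Cdk8 and 19.9 to 22.7 of Med13, without overlap. Med12 and Cdk19 overlapped in both groups, and the remaining pairs of neighbours were separate in both. The order depends on how rows are joined: by the protein-coding rows alone, Cdk19 stood above Med12, and by the single highest row of each gene, Med13 stood first, Cdk8 next, and Med13l above Ccnc.

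**Figure D1:**
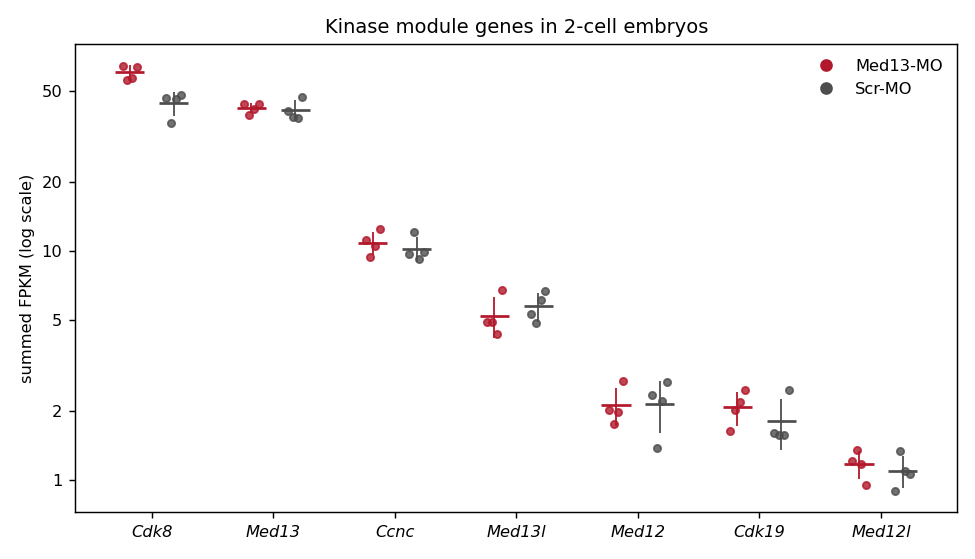
Summed FPKM of the 7 kinase module genes (log scale) in each library, Med13-MO to the left and Scr-MO to the right of each gene, with horizontal lines at the group means and vertical lines of 1 SD (n = 4 each). The 4 Med13-MO libraries of Cdk8 sit between 56.3 and 64.7, all above the Scr-MO libraries, and the groups overlap for the other 6 genes.

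Med13 encodes the large subunit that joins the module to the core, and lies on GRCm38 chromosome 11, from 86267033 to 86357602 on the minus strand (ENSMUSG00000034297.14). Its summed level was 43.9, 39.4, 41.7 and 43.8 FPKM in Med13-MO replicates 1 to 4, against 41.1, 38.5, 38.2 and 47.5 FPKM in Scr-MO replicates 1 to 4. The groups overlapped throughout, and replicate 4 of Scr-MO was the highest of the 8. The means were 42.2 ± 2.14 FPKM in Med13-MO and 41.3 ± 4.31 FPKM in Scr-MO libraries (SD, n = 4 each). The log2 difference was 0.03, with a 95% interval from limma of -0.28 to 0.35 (two-sided exact permutation p = 0.629 over 70 assignments, of which the smallest possible is 0.0286). An oligomer that blocks translation need not lower the mRNA it binds. Whether this oligomer blocks translation or splicing was not tested, and MED13 protein was not measured here. The summed Med13 mRNA level is therefore no check of the knockdown.

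Nearly all the Med13 fragments came from the full-length coding row. Med13-201, with 30 exons and 10546 bases, held 95% of the fragments of the gene but 52.5% of its summed FPKM, because the other rows are short. It stood at 22.2, 21.4, 22.8 and 22.5 FPKM in Med13-MO libraries, against 21.9, 22.7, 19.9 and 21.9 FPKM in Scr-MO libraries, with a log2 difference of 0.04 ± 0.15 (SE; limma adjusted p = 0.878 over all rows). These 8 values differed by less than those of any of the short rows, which overlap it in most of their bases. Med13-203, a retained-intron model of 738 bases, ran from 7.38 to 10.09 FPKM in Med13-MO libraries and from 6.22 to 14.5 in Scr-MO libraries, the highest being replicate 4. Med13-202 ran from 4.63 to 6.46 FPKM in Med13-MO and from 4.03 to 7.84 FPKM in Scr-MO libraries, and Med13-204 from 4.84 to 6.52 FPKM in Med13-MO and from 3.25 to 5.77 FPKM in Scr-MO libraries. All 3 overlapped between the groups, and their log2 differences of 0.02 (Med13-203), -0.05 (Med13-202) and 0.21 (Med13-204) did not pass the test. Of the 50-base stretches of Med13-201, 5.85% also occur in Brip1os, an antisense gene whose sum ran from 6.15 to 6.72 FPKM in Med13-MO and from 7.20 to 8.31 FPKM in Scr-MO libraries; the sources used here do not say whether strand was used in counting, so reads of both cannot be told apart.

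Med13l, the paralogue that takes the place of Med13 in the module (chromosome 5, 118560679 to 118765438, plus strand, ENSMUSG00000018076.12), stood well below it. It had 4.91, 4.89, 4.35 and 6.76 FPKM in Med13-MO libraries, against 5.33, 4.85, 6.11 and 6.70 FPKM in Scr-MO libraries. Replicate 4 was the highest of each group, and the groups overlapped. The log2 difference was -0.12 ± 0.16 (SE; limma adjusted p = 0.643), with -0.23 without Med13-MO replicate 4, -0.19 without Scr-MO replicate 2, -0.054 without Med13-MO replicate 3 and -0.056 without Scr-MO replicate 4. The coding models Med13l-201 (31 exons, 9296 bases) and Med13l-202 (31 exons, 7781 bases) carried 79.0% of the FPKM, with log2 differences of -0.08 and 0.03 that did not pass. The other 4 rows had means of 0.117 to 0.620 FPKM and were too low to be tested; Med13l-204 had 14.5 fragments in Scr-MO replicate 2 and 0 to 3 in the other 7 libraries.

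Med12 and Med12l, whose proteins switch on the cyclin-bound kinase, were both low. Med12 (chromosome X, 101274030 to 101297465, plus strand, ENSMUSG00000079487.11) had 2.03, 1.76, 1.99 and 2.71 FPKM in Med13-MO libraries, against 2.36, 1.38, 2.20 and 2.68 FPKM in Scr-MO libraries, on 191 to 535.5 fragments a library. Med12l (chromosome 3, 59005825 to 59318682, plus strand, ENSMUSG00000056476.13) had 1.21, 1.35, 1.17 and 0.951 FPKM in Med13-MO libraries, against 0.898, 1.34, 1.09 and 1.07 FPKM in Scr-MO libraries, on 228 to 375.5 fragments. The groups overlapped for both genes. The log2 differences were -0.01 ± 0.17 for Med12 (SE; 95% interval -0.37 to 0.36; limma adjusted p = 0.983) and 0.05 ± 0.13 for Med12l (SE; 95% interval -0.24 to 0.34; adjusted p = 0.822). None of their 9 and 6 rows reached a mean of 1 FPKM, so no row was tested. The 4 coding models of Med12 share nearly all their exons and had means between 0.257 and 0.300 FPKM; 10.4% of the 50-base stretches of Med12-201 also occur in Gm21986, a transcript of the same strand with 0.112 to 0.245 FPKM in Med13-MO and 0.142 to 0.198 FPKM in Scr-MO libraries. In Med12l-204 15.9% of the stretches occur in Igsf10, on the opposite strand.

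Ccnc, which encodes cyclin C, the activating partner of the kinase (chromosome 4, 21727701 to 21759922, plus strand, ENSMUSG00000028252.20), had 11.2, 9.44, 10.5 and 12.5 FPKM in Med13-MO libraries. In Scr-MO libraries it had 9.74, 12.1, 9.27 and 9.91 FPKM. The groups overlapped, and the log2 difference was 0.08 ± 0.15 (SE; limma adjusted p = 0.742). Its 6 tested rows lay close together, with means of 1.28 to 1.86 FPKM, and none passed. Ccnc-201 and Ccnc-202, the longest models, had log2 differences of -0.16 each, whereas Ccnc-203, Ccnc-204, Ccnc-205 and Ccnc-207 had 0.19, 0.15, 0.18 and 0.09. Ccnc-201 and Ccnc-202 have 3484 and 3365 bases and differ by few of them; their fragment numbers differed by -7.3% to 10.8%, with Ccnc-201 ahead in 4 of 8 libraries. Ccnc-204, which has 34.3% of its bases in no other row, had 2.63 FPKM in Med13-MO replicate 4 and 0.910 to 1.17 FPKM in the other Med13-MO libraries, against 0.658 to 1.48 FPKM in Scr-MO libraries; without that library its log2 difference was -0.06. In Ccnc-204 19.0% of the bases overlap Tstd3, on the opposite strand.

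Cdk19, the kinase that can stand in for CDK8 (chromosome 10, 40339564 to 40483818, plus strand, ENSMUSG00000038481.13), was a low transcript, at 1.63, 2.01, 2.19 and 2.48 FPKM in Med13-MO libraries. In Scr-MO libraries it stood at 1.60, 1.57, 1.57 and 2.48 FPKM, so that replicate 4 lay apart from the other Scr-MO libraries and stood level with the highest Med13-MO library. The log2 difference was 0.14 ± 0.16 (SE; 95% interval -0.20 to 0.48; limma adjusted p = 0.575). It was 0.25 without Scr-MO replicate 4, 0.21 without Med13-MO replicate 1 and 0.077 without Med13-MO replicate 4, and did not pass in any of these. Both of its rows are coding, and Cdk19-201, the row that was tested, had a log2 difference of 0.12 (limma adjusted p = 0.565). A further 3 GENCODE models of Cdk19 have no row in the table.

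Cdk8, the main kinase of the module by level, lies on chromosome 5, from 146231230 to 146302874 on the plus strand (ENSMUSG00000029635.15). Its summed level was 64.7, 56.3, 57.2 and 64.2 FPKM in Med13-MO libraries, against 46.8, 36.5, 46.2 and 48.1 FPKM in Scr-MO libraries. Every Med13-MO library was above every Scr-MO library, and Scr-MO replicate 2 was the lowest of the 8. The means were 60.6 ± 4.47 FPKM in Med13-MO and 44.4 ± 5.33 FPKM in Scr-MO libraries (SD, n = 4 each), on 3598 to 6775.5 fragments a library. On the scale of FPKM + 1 this was a fold of 1.36 (95% interval 1.08 to 1.71), a log2 difference of 0.45 ± 0.15 (SE; limma adjusted p = 0.0634 over all genes). Without Scr-MO replicate 2 the log2 difference was 0.36 (adjusted p = 0.0974).

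Set against the whole table, 0 of the 7 genes were called at an adjusted p below 0.05, where 17.1% of the 11755 tested genes were called in limma, 9.29% higher and 7.81% lower. Cdk8 was the 1 member at an unadjusted p below 0.05, and the 1 member whose groups did not overlap. Of all tested genes, 21.6% did not overlap in either direction, and 10.4% did not overlap with Med13-MO higher. The median log2 difference of the 7 genes was 0.05, and that of all tested genes -0.06. Cdk8 passed the threshold in 5 of 9 other settings of scaling, filter, weighting or rows summed, and in none of the 8 fits without 1 library.

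**Figure D2:**
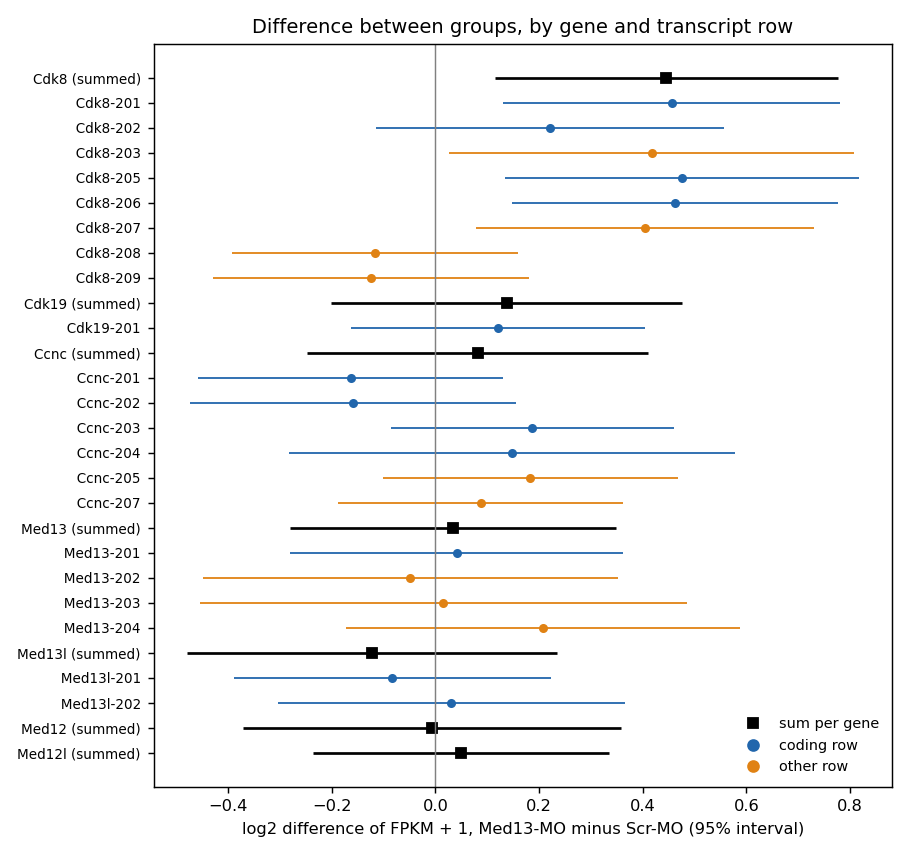
Log2 difference of FPKM + 1, Med13-MO minus Scr-MO, with 95% limma intervals, for each gene (black squares, sums) and each tested row (blue, coding; orange, other) of the kinase module. The intervals of Cdk8 and of 5 of its 8 tested rows lie above 0, Cdk8-208 and Cdk8-209 sit at -0.12, and the intervals of all other genes and rows include 0.

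Cdk8 has 9 rows, of which 8 were tested. Cdk8-201 and Cdk8-205 are coding models of 13 exons, Cdk8-206 is a coding model of 7 exons, Cdk8-207 is a model marked for nonsense-mediated decay, and Cdk8-203 is a retained-intron model of 6 exons at the 3′ end. Cdk8-208 and Cdk8-209 lie mostly in introns: 96.5% and 98.4% of their bases are in no other row. The boundary at the end of exon 2 shows what separates Cdk8-208 from the spliced rows. It is given from GRCm38, plus strand, with exon 2 in capitals, first joined to exon 3 as in Cdk8-201 (chr5:146259551-146268244, intron left out) and then running on into the intron as in Cdk8-208 (chr5:146259551-146259610).
Cdk8-201 junction: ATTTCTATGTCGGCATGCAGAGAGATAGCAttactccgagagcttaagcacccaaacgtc
Cdk8-208 exon end: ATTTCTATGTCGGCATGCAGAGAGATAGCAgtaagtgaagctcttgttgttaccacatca
Exon 2 runs from 146259505 to 146259580, 76 bases, and Cdk8-208 adds 1712 intron bases before it and 407 after it.

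The 5 rows Cdk8-201, Cdk8-203, Cdk8-205, Cdk8-206 and Cdk8-207, made mainly of spliced exons, were higher in every Med13-MO library than in any Scr-MO library. Cdk8-206 had 10.3, 9.003, 8.43 and 10.4 FPKM in Med13-MO libraries, against 7.15, 6.29, 6.45 and 6.62 FPKM in Scr-MO libraries. It rose by a log2 difference of 0.46 ± 0.15 (SE; limma adjusted p = 0.0470), on 253.5 to 541.5 fragments a library. This was the 1 row called among the 21 member rows tested, where 15.7% of all 21052 tested rows were called, 8.17% higher and 7.57% lower. The call was lost in each of the 8 fits without 1 library (limma adjusted p from 0.0530 to 0.124) and with no filter on low rows (0.0956). Every base of Cdk8-206 is also in another Cdk8 row, and the sources used here do not say how fragments of shared exons were assigned.

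The other 4 of these rows had log2 differences of 0.40 to 0.48 that did not pass the test over all rows. Cdk8-201 had 13.7, 12.2, 11.9 and 13.5 FPKM in Med13-MO libraries, against 9.70, 7.78, 9.24 and 9.69 FPKM in Scr-MO libraries, with a log2 difference of 0.46 (limma adjusted p = 0.0565). Cdk8-205 had 14.2, 13.0, 13.6 and 14.1 FPKM in Med13-MO libraries, against 10.3, 7.56, 10.1 and 10.7 FPKM in Scr-MO libraries, with a log2 difference of 0.48 (adjusted p = 0.0574). Cdk8-207 had 10.9, 10.02, 9.503 and 11.2 FPKM in Med13-MO libraries, against 8.17, 6.37, 7.66 and 8.32 FPKM in Scr-MO libraries, with a log2 difference of 0.40 (adjusted p = 0.0857). In these 3 rows Scr-MO replicate 2 was the lowest library. Cdk8-203 ran from 8.05 to 10.6 FPKM in Med13-MO libraries and from 4.56 to 7.92 FPKM in Scr-MO libraries (log2 difference 0.42, adjusted p = 0.134), and those groups did not overlap either. Together 5 member rows did not overlap between the groups, all higher in Med13-MO libraries, where 9.66% of all tested rows did so in that direction. All 5 are models of Cdk8 that share most of their bases with its other rows, so they are not separate observations. Cdk8-202, a short coding model of 4 exons and 654 bases, overlapped (log2 difference 0.22). Rows that differ little in sequence need not have equal values: Cdk8-201 and Cdk8-207 are both of 2973 bases, and Cdk8-201 had 16.5% to 25.8% more fragments in all 8 libraries.

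The 3 rows of Cdk8 that lie mostly in introns overlapped between the groups. Cdk8-204, too low to be tested, had 0.494, 0.338, 0.451 and 0.281 FPKM in Med13-MO libraries, against 0.205, 0.225, 0.188 and 0.307 FPKM in Scr-MO libraries, on 6 to 14.5 fragments. Cdk8-208 had 1.39, 1.08, 1.03 and 1.07 FPKM in Med13-MO libraries, against 1.17, 1.06, 1.43 and 1.66 FPKM in Scr-MO libraries, on 71 to 151 fragments. Cdk8-209 had 1.11, 0.891, 0.920 and 1.15 FPKM in Med13-MO libraries, against 1.18, 0.782, 1.18 and 1.75 FPKM in Scr-MO libraries, on 112.5 to 228.5 fragments. Cdk8-204 was higher on average in Med13-MO libraries, while Cdk8-208 and Cdk8-209 had log2 differences of -0.12 each (limma adjusted p = 0.571 for Cdk8-208 and 0.586 for Cdk8-209). Set against the other rows of Cdk8 by limma's diffSplice, which tests a row's log2 difference against that of the rest of its gene, Cdk8-208 differed by -0.45 (adjusted p = 0.106) and Cdk8-209 by -0.46 (adjusted p = 0.0898). Of 20 member rows in 4 genes, 0 passed this test, where 1.08% of 15397 rows did in the whole table, 0.52% higher and 0.565% lower than the other rows of their gene. With rows kept from a mean of 0.1 FPKM both passed (diffSplice adjusted p = 0.0440 for Cdk8-208 and 0.0385 for Cdk8-209), and without Scr-MO replicate 2 likewise (0.0446 and 0.0147). Rows of a gene share exons and are not independent, which diffSplice does not allow for, so all its p-values here are approximate. A pseudocount of 1 understates the change of rows near 1 FPKM; with a pseudocount of 0.1 the differences were -0.56 and -0.57, with adjusted p = 0.196 and 0.176 in diffSplice.

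The coding rows of Cdk8 can also be set against its rows with over 50% of their bases outside the coding models, Cdk8-204, Cdk8-208 and Cdk8-209, a grouping chosen after the values were seen and given without a test. The summed coding rows averaged 38.4 ± 2.48 FPKM in Med13-MO and 27.2 ± 2.54 FPKM in Scr-MO libraries (SD, n = 4 each), and the rows mostly outside them 2.55 ± 0.306 FPKM in Med13-MO and 2.78 ± 0.694 FPKM in Scr-MO libraries; Cdk8-204, the lowest of the 3 rows, went the other way, at 0.391 ± 0.0985 FPKM in Med13-MO and 0.231 ± 0.0529 FPKM in Scr-MO libraries. The ratio of the coding sum to the outside sum was 13.4, 15.6, 15.3 and 16.3 in Med13-MO libraries, against 11.4, 11.4, 9.94 and 7.63 in Scr-MO libraries. These ratios did not overlap between the groups, and the lowest was that of Scr-MO replicate 4. Their numerator, the coding sum, was already apart, at 35.9 to 40.9 FPKM in Med13-MO and 23.5 to 29.2 FPKM in Scr-MO libraries. The separate ratios are therefore no further result. The share of all genes with such a ratio apart was not computed. In summed level, which is a different measure, 21.6% of all tested genes did not overlap. The same ratio overlapped for Med13l, at 10.9 ± 1.66 in Med13-MO and 8.45 ± 4.91 in Scr-MO libraries, and for Ccnc, at 7.75 ± 2.63 in Med13-MO and 8.56 ± 1.13 in Scr-MO libraries (SD, n = 4 each). Their outside rows held 44.5 to 122 fragments a library for Med13l and 28 to 56.5 for Ccnc, against 194.5 to 378.5 for Cdk8.

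Cdk8 sequence is also found in Gm7107, a processed pseudogene on chromosome 14 (51358603 to 51359964, plus strand). Gm7107 has no row under that symbol in the table, so its own level could not be read. Of the 2924 stretches of 50 bases in Cdk8-201, 522 occur in it, and the share ran from 4.40% in Cdk8-204 to 22.3% in Cdk8-206. The shares were 20.8% in Cdk8-205, 15.2% in Cdk8-207 and 11.6% in Cdk8-203, while Cdk8-208 and Cdk8-209 share none with it. The part of Gm7107 in the Cdk8 values was not tested. No member shared a 50-base stretch with another member.

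**Figure D3:**
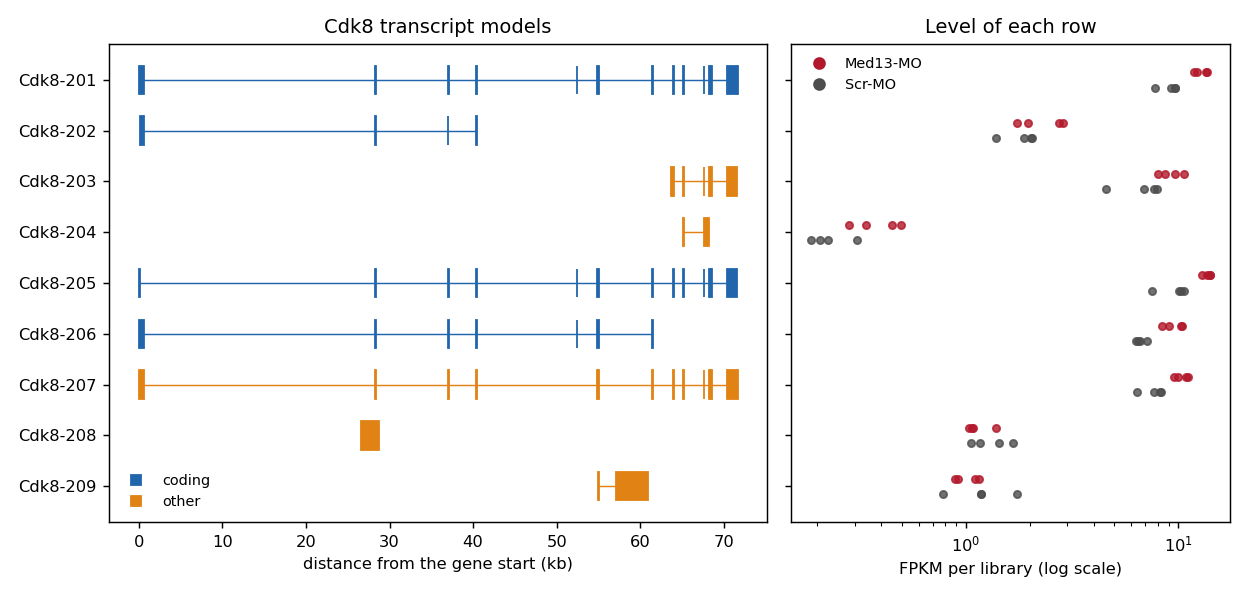
Exon models of the 9 Cdk8 rows by distance from the gene start in kb (left; blue, coding; orange, other) and FPKM of each row in each library on a log scale (right; red, Med13-MO; grey, Scr-MO). In Cdk8-201, Cdk8-203, Cdk8-205, Cdk8-206 and Cdk8-207 all Med13-MO points lie above all Scr-MO points, while in Cdk8-202, Cdk8-204, Cdk8-208 and Cdk8-209 they overlap.

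The balance between paralogues, which take the same place in the module, showed no difference that passed the test. Each was measured as the log2 ratio of summed FPKM + 1, tested by a two-sided exact permutation test over 70 assignments, whose smallest p of 0.0286 cannot pass after adjustment over the 3 ratios unless several reach it. The Cdk8 to Cdk19 ratio was 4.64, 4.25, 4.19 and 4.23 in Med13-MO libraries, against 4.20, 3.87, 4.20 and 3.82 in Scr-MO libraries. The groups overlapped slightly, with a difference of 0.31 (exact permutation p = 0.0857, adjusted p = 0.257). By coding rows alone the difference was 0.35 (exact permutation, adjusted p = 0.0857), with the exact p at its smallest possible value. The Med13 to Med13l ratio averaged 2.81 ± 0.207 in Med13-MO and 2.65 ± 0.133 in Scr-MO libraries (SD, n = 4 each), a difference of 0.16 (exact permutation p = 0.229, adjusted p = 0.343). The Med12 to Med12l ratio averaged 0.518 ± 0.291 in Med13-MO and 0.574 ± 0.378 in Scr-MO libraries (SD, n = 4 each), a difference of -0.06 (exact permutation p = 0.829).

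**Figure D4:**
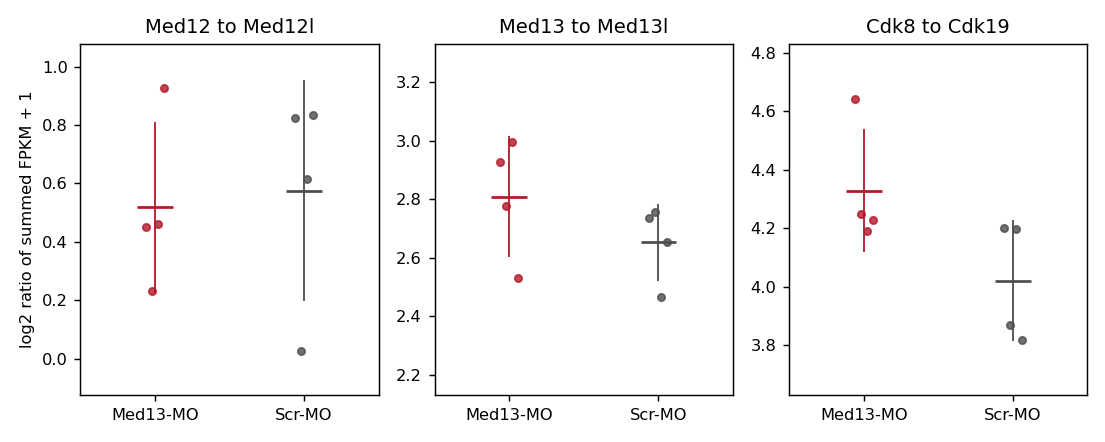
Log2 ratio of summed FPKM + 1 for the 3 paralogue pairs, each panel on its own axis, with Med13-MO left of Scr-MO, a point for each library, lines at the means and bars of 1 SD (n = 4 each). For Cdk8 to Cdk19 the lowest Med13-MO library, at 4.19, lies just below the highest Scr-MO library, at 4.20, and the groups overlap in the other panels too.

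Of the 26 core Mediator genes, all tested, 3 were higher and 1 was lower in Med13-MO embryos in limma, where 9.29% of all tested genes were higher and 7.81% lower. The median log2 difference of the 26 was 0.09, and the share called was near that of all genes. Med15, a tail subunit that binds activators, averaged 11.3 ± 1.96 FPKM in Med13-MO and 5.92 ± 1.39 FPKM in Scr-MO libraries (SD, n = 4 each; log2 difference 0.83, adjusted p = 0.0105). Med26, which helps recruit elongation factors, averaged 7.29 ± 1.97 FPKM in Med13-MO and 3.42 ± 1.05 FPKM in Scr-MO libraries (log2 difference 0.91, adjusted p = 0.0146). Med11, a head subunit, averaged 7.14 ± 1.87 FPKM in Med13-MO and 3.87 ± 0.297 FPKM in Scr-MO libraries (log2 difference 0.71, adjusted p = 0.0177). Med14, the scaffold that joins the parts of the core, fell to 32.4 ± 2.07 FPKM in Med13-MO, against 48.1 ± 6.45 FPKM in Scr-MO libraries (log2 difference -0.55, adjusted p = 0.0286). Of the 9 genes of the other transcription kinases and their cyclins (Cdk7, Ccnh, Mnat1, Cdk9, Ccnt1, Ccnt2, Cdk12, Cdk13 and Ccnk), 0 passed (median log2 difference 0.003). Of Fbxw7, Skp1a, Cul1 and Rbx1, the ubiquitin ligase that turns over MED13 in human cells, 0 of 4 passed (median -0.08). With 17.1% of all tested genes called, a count of 0 in lists this small does not set them apart.

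Among 2826 other genes with a mean of at least 10 FPKM, those whose pattern over the 8 libraries was most like that of Cdk8 were Kmt2d, Ncoa2 and Ubp1, with a root mean square difference of centred log2(FPKM + 1) of 0.057, 0.059 and 0.068, where the median candidate had 0.394. Kmt2d averaged 18.2 ± 1.02 FPKM in Med13-MO and 13.6 ± 1.33 FPKM in Scr-MO libraries (SD, n = 4 each). Those most like Med13 were Dsn1, Csnk1a1 and Atf2, at 0.074, 0.081 and 0.087, where the median candidate had 0.301. Csnk1a1 averaged 45.5 ± 2.20 FPKM in Med13-MO and 42.7 ± 2.31 FPKM in Scr-MO libraries (SD, n = 4 each). Dsn1 (20.5 ± 1.30 and 20.9 ± 1.67) and Atf2 (58.2 ± 4.28 and 60.3 ± 9.25) were lower on average in Med13-MO libraries. Med13 itself varied little, from 38.2 to 47.5 FPKM, so genes that vary little also score as like it.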

How the data were processed

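The authors deposited 1 table of FPKM per Ensembl transcript and symbol, and per the submitters' processing notes BWA and the mm10 build were used. The sources used here give no version, counter, annotation release or handling of strand. Per the labels' protocols, total RNA was amplified (Ovation RNA-Seq System V2) and 400 ng of cDNA went into each library. The members, lists and tests were chosen with earlier results of these data known. Of 97496 rows, 3758 whose symbol holds a hyphen have text in one value column and shifted values, and were left out; no member is among them. Of the rest, 92491 matched GENCODE M21 (GRCm38, the assembly of mm10), which gave coordinates and models.

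FPKM times length gave multiples of 0.5 fragments within 0.005 for 94.3% to 94.5% of values up to 20 fragments, from which library totals were read. The values of Cdk19-202 needed another length than that of its GENCODE model. Reads carried no molecular identifiers. Rows were summed per symbol. Genes, and separately rows, averaging 1 FPKM or more in the 8 libraries were tested as log2(FPKM + 1), with no covariate, in limma 3.58.1 (R 4.3.3, mean-variance trend, two-sided, Benjamini-Hochberg over all tested, adjusted p below 0.05; diffSplice for relative use). Such fold changes understate the change of low genes. The code was tested on simulated data. Shared sequence was searched in GENCODE transcripts (Python 3.11.15). All members were named with every row; of other lists, up to 4 called genes; and the 3 genes most like Cdk8 and Med13. Alternatives covered the pseudocount, filter, scaling, weights, voom on the fragments read back, the rows summed, and leaving out each library.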

Additional observations from a re-analysis of the deposited data

Results flagged for a closer look

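Among 62 groups of 4 libraries checked, 5 had 1 library apart from the other 3 by Dixon's 95% criterion, and chance gives about 1 in 20. In Med13-MO replicate 1, the log2 ratio of Cdk8 to Cdk19 was 4.64, against 4.19 to 4.25 in the other Med13-MO libraries, and Cdk8-208 stood at 1.39 FPKM, against 1.03 to 1.08. In Med13-MO replicate 4, Ccnc-204 stood at 2.63 FPKM, against 0.910 to 1.17 in the others. In Scr-MO replicate 2, the summed Cdk8 level was 36.5 FPKM, against 46.2 to 48.1 in the others. In Scr-MO replicate 4, the summed Cdk19 level was 2.48 FPKM, against 1.57 to 1.60 in the others.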

How the results depend on the processing

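The log2 difference of Cdk8 passed the threshold in limma by coding rows (0.48, adjusted p = 0.0413), by the main transcript (0.48, 0.0491), after median-ratio scaling (0.51, 0.0209), after quantile normalization (0.51, 0.0283) and when samples were weighted (0.32, 0.0437), which made 1 module gene called in each, among 1489, 1780, 2195, 2284 and 4336 genes called in all in that order; without 1 library it ran from 0.36 to 0.49. All genes called numbered 1012 with no filter, 1137 from a mean FPKM of 5 and 4336 with sample weights (39.5% of them higher, against 54.3% as reported), and 956 to 2404 without 1 library (43.7% higher without Scr-MO replicate 2). Of transcript rows, 1893 were called with no filter, 0 of them members (Cdk8-206 adjusted p = 0.0956), and 1701 to 4062 without 1 library, with 0 member rows in each such fit. With median-ratio scaling 5 member rows were called among 3506 in all. In relative use, 849 rows, 2 of them members, were called from a mean of 0.1 FPKM, and 94 to 178, with 0 to 2 members, without 1 library.

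The genes that kept their sign without 1 library ran from 0.077 to 0.25 (Cdk19), -0.23 to -0.054 (Med13l, -0.26 with sample weights), 0.020 to 0.16 (Ccnc) and 0.0029 to 0.10 (Med12l), and did not pass. Differences near 0 changed sign without passing in limma. Med12 gave 0.038 with median-ratio scaling, 0.079 with voom, 0.033 by coding rows and -0.136 to 0.074 without 1 library. Med13 gave -0.025 with sample weights and -0.0011 to 0.101 without 1 library. Ccnc gave -0.015 with voom, and Med13-202 0.030 with median-ratio scaling. Without 1 library, Med13-202 ran from -0.18 to 0.096, Med13-203 from -0.13 to 0.23, Med13l-202 from -0.089 to 0.085 and Ccnc-204 from -0.062 to 0.25. The Med12 to Med12l ratio gave 0.016 by coding rows and -0.24 to 0.039 without 1 library. In the order of levels, 2 genes changed rank by coding rows and 6 by the main transcript, settings added after the data were seen. The cause was not tested. No paired analysis was possible because the labels give no replicate number or collection shared between the groups. Depth limits the low rows of Med12 and Med12l, which averaged under 1 FPKM and were not tested singly.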
